A study of Homo sapiens with 3 samples.

Results

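The genes of proteasome subunits and of their activators and assembly factors were examined in KYSE140, an established human line of esophageal squamous carcinoma, in which siRNAs were used to knock down the homeobox transcription factor DLX5. The members are the rows of the deposited gene table whose symbol is PSM followed by one of the letters A to G and a number. They are 48 of 19266 gene rows. Of these, 46 carried values and 45 reached the test across genes. PSMA8 and PSMB11, subunits of the testis and the thymus, were listed without a value in any sample, and PSMB8 stayed below the minimum of 1 FPKM.

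The labels give 3 samples of total RNA: 1 labelled as negative control and 2 with DLX5 knocked down, by siRNA1 and by siRNA2. All came from the same line grown in RPMI1640 with 10% FBS. The sources used here give neither the time from transfection to harvest nor whether the samples were separate cultures. Levels are in FPKM, which counts read fragments relative to the length of the transcript and the depth of the library, with 2 replicate columns a sample. A level below is the mean of those columns, with their SD, which may be technical, and n = 1 value per sample entered each comparison. Spacing of the low values of short genes put the depth at 17150000 to 18200000 reads per column. At that depth 88.9% to 93.8% of these values lay within 0.2 reads of a whole number. DLX5 stood at 13.0 FPKM in the control against 3.63 and 3.25 with siRNA1 and siRNA2 (log2 fold change -1.66, limma adjusted p = 0.0210). Squamous markers were present in all 3 samples. The basal keratin KRT5 read 3130 FPKM in the control against 1230 and 1270, so it was lower in both siRNA samples, and TP63 read 92.1 FPKM against 90.6 and 79.4. The immune cell marker PTPRC read 0.88 to 1.2 FPKM and the T cell marker CD3E carried no value. COL1A1, a fibroblast collagen, read 15.9 FPKM in the control against 8.76 and 7.5. The part of these marker differences in the results below was not tested.

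The proteasome degrades proteins tagged with ubiquitin. Its barrel, the 20S core, stacks outer rings of alpha subunits on inner rings of beta subunits, and PSMB5, PSMB6 and PSMB7 carry the proteolytic sites. A 19S regulatory particle of ATPases (PSMC genes) and other subunits (most PSMD genes) caps the barrel, binds ubiquitin chains, unfolds the substrate and threads it inside. Interferon-induced subunits PSMB8, PSMB9 and PSMB10 replace the constitutive catalytic subunits in immunoproteasomes, which make peptides for antigen presentation. PSME proteins are alternative caps, and PSMG proteins chaperone the assembly of the core. The transcription factor NRF1, product of NFE2L1, is known to drive proteasome genes when proteolysis is short.

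Proteasome genes ranged in the control from 0.09 FPKM for PSMB8 to 376 for PSMA6. Summed, they took 1.05% of all FPKM in the control, 1.12% with siRNA1 and 1.10% with siRNA2. Over the 45 members tested the median level was 75.6 FPKM in the control, 96.6 with siRNA1 and 92.6 with siRNA2, against 11.4, 11.3 and 11.3 over all 12078 genes tested. A different gene holds the median in each sample (PSMC2, PSMD8 and PSMA2), so these medians overstate the shift of a typical member. Gene by gene, the median difference from the control in log2(FPKM + 1) was 0.1 with siRNA1 and 0.08 with siRNA2. Over all genes tested it was 0.03 and 0.01. FPKM gives a share of the RNA, so a change per cell cannot be told apart from a change in the rest of the RNA.

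**Figure D1:**
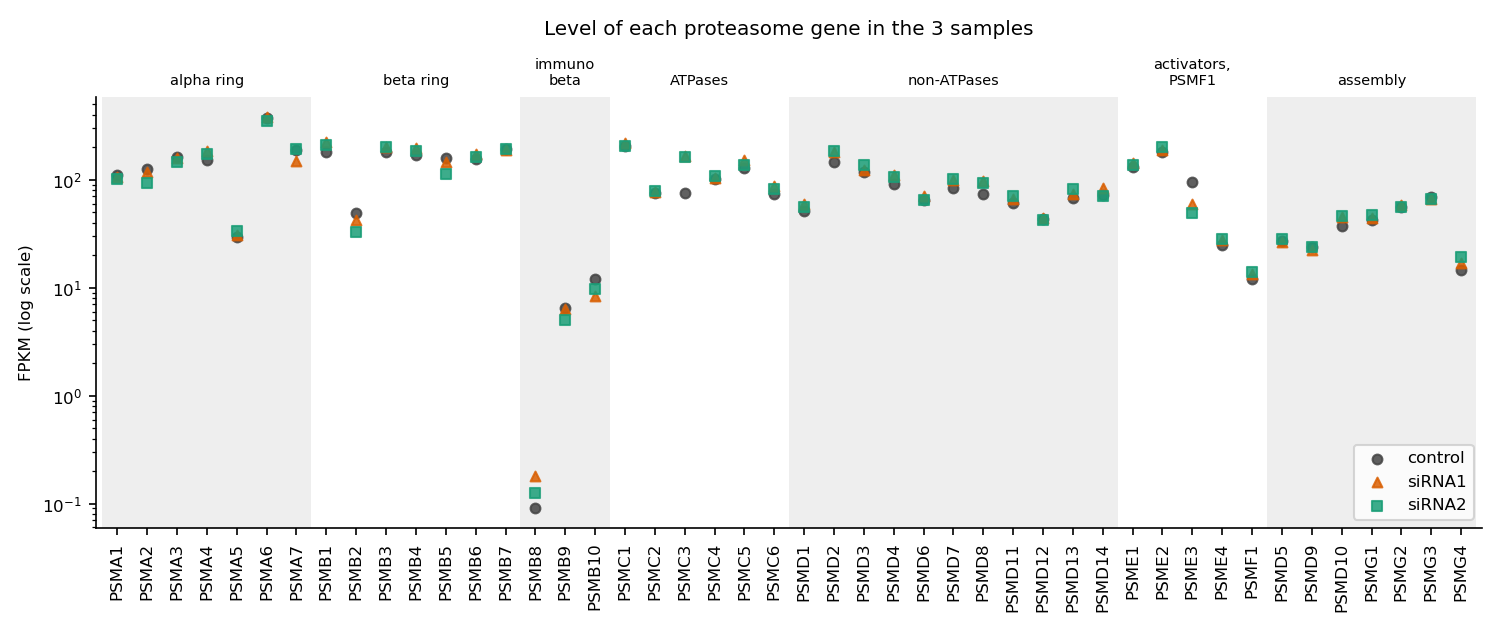
FPKM (vertical axis, log scale) of the 46 members with values, by class along the horizontal axis; circles, triangles and squares are the control, siRNA1 and siRNA2 samples. Most constitutive genes lie between about 40 and 400 FPKM and their symbols overlap, PSMB8 lies near 0.1 FPKM, and PSMC3 and PSME3 show the widest gaps between control and siRNA samples among members above 1 FPKM.

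Within the core, genes of the alpha ring ranged in the control from 29.3 FPKM for PSMA5 to 376 for PSMA6, with a median of 152. PSMA6 was the highest member in all 3 samples, at 376 ± 9.61 FPKM in the control, 384 ± 13.5 with siRNA1 and 350.0 ± 0.615 with siRNA2. Genes of the constitutive beta ring lay between 48.6 FPKM for PSMB2 and 194 for PSMB7, with a median of 170.0. PSMA5 and PSMB2, the lowest of each ring, stood below the other subunits of their rings, and the products of both enter every core particle. Levels in the regulatory particle were lower, with medians of 88.2 FPKM over the ATPases and 71.7 over the non-ATPase subunits. Assembly factors had a median of 37.4 FPKM. FPKM is scaled to length, so comparing these levels between genes rests on the length assigned to each. PSMA5 and PSMB2 have the longest listed transcripts of their rings, 3826 and 4744 bases. The part of length in their low levels was not tested. Named pseudogenes in GENCODE v29 exist for 10 members, PSMA6 and PSMC1 among them, whose reads may be split between copies. PSMC2, PSMC5, PSMD1, PSME1 and PSMG2 overlap another gene of the table, and without a stated strand setting reads of the overlap cannot be told apart.

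Immunoproteasome subunits were far below their constitutive counterparts in all samples. PSMB9, which takes the beta1 position of PSMB6, read 6.54 ± 0.735 FPKM in the control, 6.33 ± 0.700 with siRNA1 and 5.03 ± 0.0636 with siRNA2. Its replicate columns in the control and the siRNA1 sample overlap, and those of siRNA2 lie below. As a share of PSMB6 it came to 4.21%, 3.63% and 3.13%. PSMB10, which takes the beta2 position of PSMB7, read 12.1 ± 1.52, 8.38 ± 0.0778 and 9.79 ± 0.219 FPKM in the same order, that is 6.23%, 4.46% and 5.09% of PSMB7. All siRNA columns of PSMB10 were below those of the control, but the difference did not pass the test (log2 fold change -0.38, limma adjusted p = 0.323), nor did that of PSMB9 (log2 fold change -0.18, limma adjusted p = 0.675).

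PSMB8, the third of these subunits, was close to the limit of detection. It read 0.0900 ± 0.0283 FPKM in the control, 0.180 ± 0.0990 with siRNA1 and 0.125 ± 0.0354 with siRNA2, which corresponds to an estimated 2 to 7 reads per column, and its columns overlap between samples. PSMB9, its neighbor in the major histocompatibility region, had an estimated 90 to 127 reads per column. No difference of PSMB8 between samples was detectable at this depth.

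**Figure D2:**
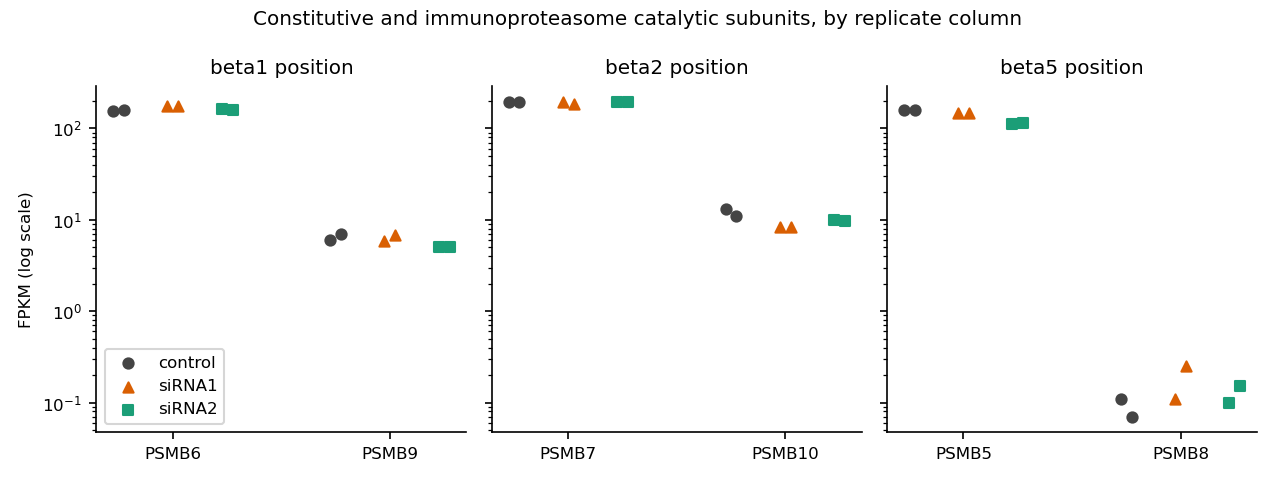
FPKM (log scale) of the constitutive catalytic subunits PSMB6, PSMB7 and PSMB5 and of their immunoproteasome counterparts PSMB9, PSMB10 and PSMB8, with 1 symbol per replicate column and color and shape by sample. In each panel the immunoproteasome subunit lies at least an order of magnitude below, and PSMB8, at 0.0700 to 0.250 FPKM, lies lowest.

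The catalytic subunits of the constitutive core did not move together. PSMB5, the chymotrypsin-like subunit, read 159 ± 0.693 FPKM in the control, 146 ± 0.148 with siRNA1 and 113 ± 0.354 with siRNA2. Both siRNA samples lie below the control, siRNA2 further than siRNA1. PSMB6, the caspase-like subunit, read 155 ± 2.44, 174 ± 0.290 and 161 ± 0.919 FPKM, with both siRNA samples above the control. PSMB7, the trypsin-like subunit, read 194 ± 2.04, 188 ± 6.49 and 193 ± 0.325 FPKM, a spread of no more than 1.03-fold. None passed the test (log2 fold changes -0.30, 0.11 and -0.03; limma adjusted p = 0.432, 0.726 and 0.923).

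Against the control, 1 of 45 members tested passed the test in the siRNA samples, PSMC3, which rose. That is 2.22% of the members, beside a background of 1.42% of all genes tested that rose (limma on log2(FPKM + 1), Benjamini-Hochberg adjusted p under 0.05). No member fell, where 1.67% of all genes did, and at an unadjusted p under 0.05 there were 2 members higher and 1 lower (background 9.45% and 10.1%). These tests rest on 1 residual degree of freedom and on a single control, assumed to vary like the knockdown samples.

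PSMC3 (Entrez gene 5702, chromosome 11, 47440320 to 47448024, minus strand, hg19) encodes RPT5, an ATPase of the regulatory particle. It read 75.4 ± 0.771 FPKM in the control, 164 ± 0.962 with siRNA1 and 161 ± 2.86 with siRNA2. The siRNA samples are more than double the control and near each other: 2.17-fold higher with siRNA1 and 2.14-fold with siRNA2. Its log2 fold change was 1.10 ± 0.13 (SE, limma adjusted p = 0.0222). An estimated 2040 to 4591 reads per column stand behind these values. None of the other ATPases passed. PSMC1 read 203 FPKM against 217 and 205, PSMC2 75.6 against 76.5 and 78.8, PSMC4 101 against 104 and 109, PSMC5 129 against 152 and 137, and PSMC6 73.8 against 86.7 and 81.3. ATPases enter the ring in equal numbers, and in the control PSMC3 was level with PSMC2 and PSMC6. With the siRNAs it stood second among the 6, after PSMC1. It no longer passed when genes of low FPKM were kept in (adjusted p = 0.320, log2 fold change 1.10) or with quantile-normalized values (adjusted p = 0.0531, log2 fold change 1.06). Over the alternatives with a test the adjusted p ran from 2.93e-09 to 0.320. No other gene of the table overlaps PSMC3, and GENCODE v29 has no pseudogene named after it.

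PSME3 (Entrez gene 10197, chromosome 17, 40985159 to 40995777, plus strand, hg19) encodes PA28 gamma, also called REG gamma, the nuclear activator of the core that works without ubiquitin. It read 95.9 ± 2.80 FPKM in the control, 59.5 ± 2.81 with siRNA1 and 49.5 ± 1.01 with siRNA2. Both siRNA samples lie below the control with no overlap of columns, 1.61-fold lower with siRNA1 and 1.94-fold with siRNA2. With a log2 fold change of -0.81 ± 0.17 (SE) it missed the threshold (limma adjusted p = 0.0634), and it passes at an adjusted p under 0.10. With genes of low FPKM kept in, it did not pass 0.10 either (limma adjusted p = 0.323). Quantile-normalized values gave a limma adjusted p of 0.0951. Over the alternatives with a test the limma adjusted p ran from 7.7e-08 to 0.323. The relatives of PSME3 showed no such gap between control and siRNA samples. PSME1 and PSME2, the interferon-inducible PA28 alpha and beta, read 130.0 FPKM against 144 and 136, and 179 FPKM against 190.0 and 202. PSME4, the large activator PA200, read 24.9 FPKM against 27.8 and 28.2, and PSMF1, the core-binding regulator PI31, read 12 FPKM against 13.5 and 13.9. The authors' deposited table lists PSME3 at log2 fold changes of -0.69 and -0.96 and PSMC3 at 1.12 and 1.10 for the siRNA samples against the control.

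**Figure D3:**
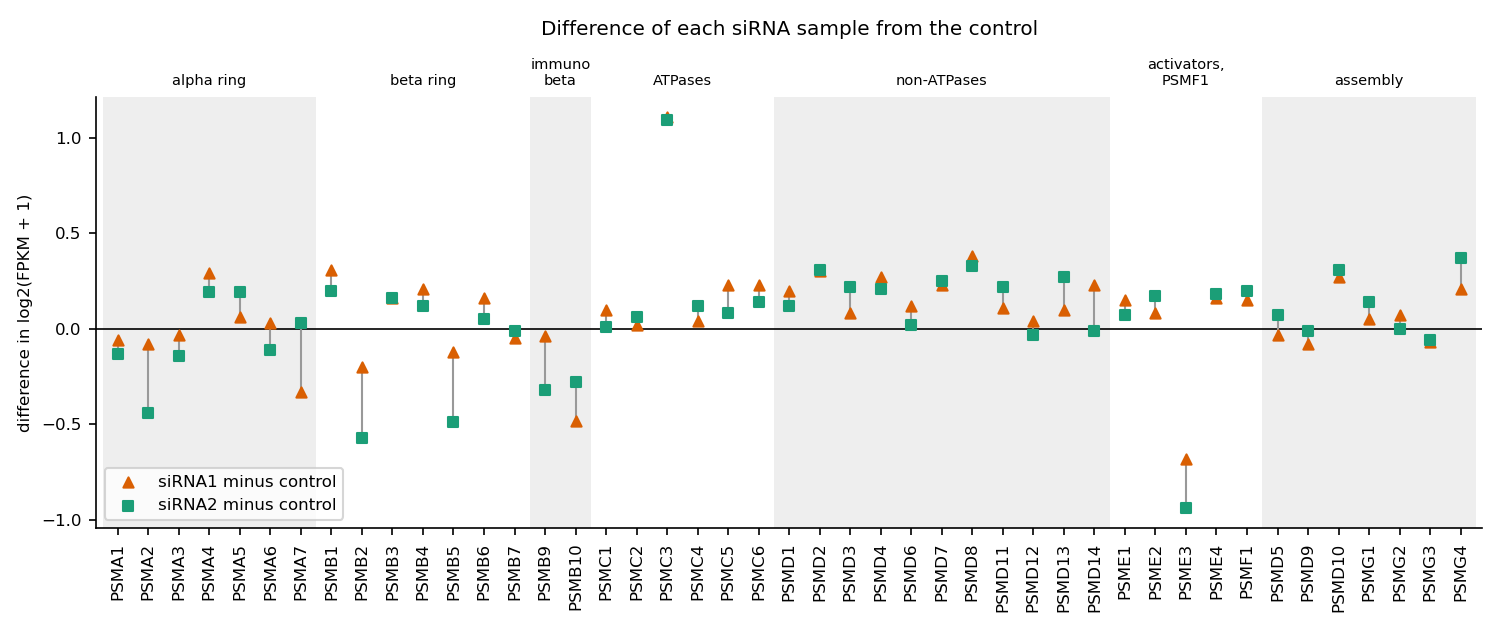
Difference in log2(FPKM + 1) from the control for siRNA1 (triangles) and siRNA2 (squares), 1 column per member tested, by class; gray lines join the samples. PSMC3 is highest (1.11 and 1.09) and PSME3 lowest (-0.68 and -0.94), and most other members lie within 0.5 of 0; both differences use the same control.

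Few members differed much from the control. With siRNA1, 2 of 45 exceeded the control FPKM by 25% or more and 3 were 20% or more under it, which is 4.44% and 6.67% where all genes tested gave 20.7% and 22.1%. With siRNA2, 3 were higher and 5 lower by as much (6.67% and 11.1%), where all genes gave 17.4% and 19.1%. Low genes vary more from counting alone. The mean level was 10 FPKM or more for 44 of the members. Of these, 2 were higher and 3 lower with siRNA1 (4.55% and 6.82%, background 19.3% and 17.0%). With siRNA2, 3 were higher and 4 lower (6.82% and 9.09%, background 16.8% and 14.0%). Both comparisons use the same control.

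The regulatory particle and the core are described by the sign of their shifts, none of which but that of PSMC3 passed the test. All 17 genes of the regulatory particle had a fitted log2 fold change above 0, with a median of 0.16, where 51.8% of all genes tested lay above 0 with a median of 0.01; after quantile normalization 15 of 17 did, with a median of 0.12. Of the 14 genes of the constitutive core 6 lay above 0 and 8 below, with a median of -0.03 (6 of 14 and -0.08 after quantile normalization). By sample, 17 of 17 regulatory particle genes read above the control with siRNA1 and 15 of 17 with siRNA2. For the core these counts were 7 of 14 with each siRNA. The share of all genes tested that read above the control was 53.6% with siRNA1 and 51.6% with siRNA2. Of all genes at a mean of 10 FPKM or more, 56.1% had a fitted log2 fold change above 0. These shifts are small and share 1 control sample, so a shift of many genes cannot be told apart from a difference in that sample. Whether the classes differ was not tested.

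Separation of the replicate columns was counted for each class. All 4 siRNA columns lay above both control columns in 24 of 45 members and below them in 6 (background 31.0% and 26.8% of genes tested). For the regulatory particle that was 13 of 17 above and none below. For the core it was 6 of 14 above and 4 below. Columns of a sample are not separate samples, so this describes how far the 3 samples lie apart beyond the spread within them.

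**Figure D4:**
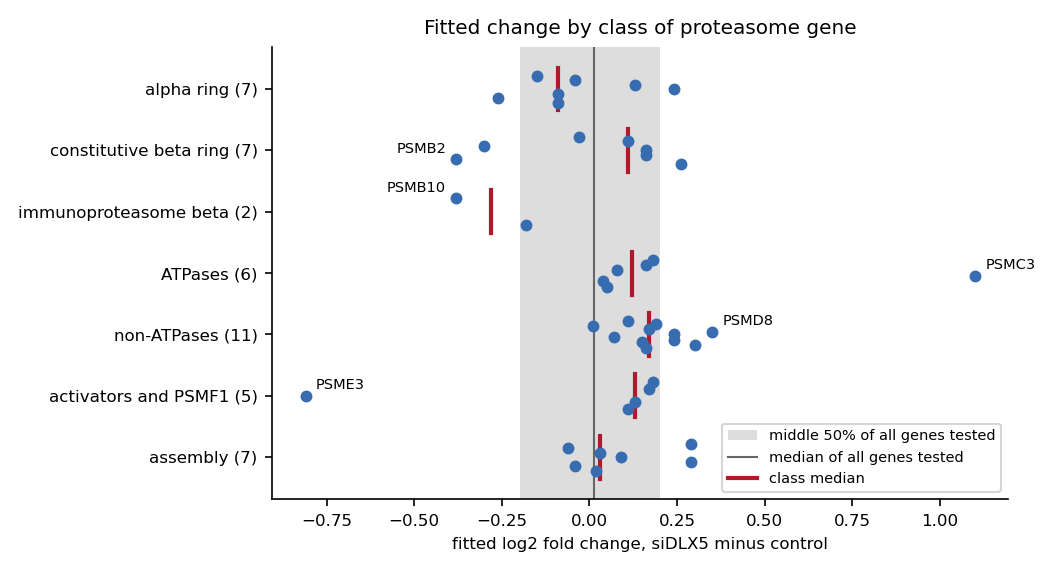
Fitted log2 fold change (siDLX5 minus control, horizontal axis) of the 45 members tested, 1 point each, by class with the number of genes; red bars are class medians, the gray band is the middle 50% of all genes tested (-0.20 to 0.20) and the gray line their median. Points of the ATPases and non-ATPases lie to the right of 0, alpha ring points spread to both sides, and PSMC3 and PSME3 lie far outside the band.

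Of the non-ATPase subunits of the regulatory particle, PSMD8 (RPN12, a lid subunit) had the largest fitted difference. It read 74.2 ± 2.07 FPKM in the control, 96.6 ± 0.212 with siRNA1 and 93.6 ± 0.346 with siRNA2, or 1.30-fold and 1.26-fold higher, and did not pass (log2 fold change 0.35 ± 0.14 SE, limma adjusted p = 0.230). PSMD2 (RPN1, a scaffold that docks ubiquitin receptors) read 147 ± 1.87, 181 ± 1.72 and 183 ± 1.69 FPKM. Here too the siRNA samples lie together above the control (limma adjusted p = 0.260). The ubiquitin receptor PSMD4 (RPN10) read 91.3 FPKM against 111 and 106, and the lid subunit PSMD7 (RPN8) read 84.4 FPKM against 99.4 and 101. PSMD12 had the smallest fitted difference of the class, at 43.2 FPKM against 44.5 and 42.3. PSMD14, the deubiquitinase RPN11, read 71.7 ± 1.18 FPKM in the control, 84.4 ± 6.42 with siRNA1 and 71.2 ± 0.488 with siRNA2, so that only the siRNA1 sample stands above. PSMD1, a base scaffold, read 51.8 FPKM against 59.4 and 56.4, and the lid subunits PSMD3 and PSMD6 read 118 FPKM against 124 and 137 and 64.2 FPKM against 70.1 and 65.3. The lid subunits PSMD11 and PSMD13 read 60.7 FPKM against 65.7 and 70.7 and 68 FPKM against 73.1 and 82. In these 5 genes all siRNA columns lay above those of the control, at fitted log2 fold changes from 0.07 to 0.19, and none passed.

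Within the alpha ring, PSMA4 read 152 ± 4.12 FPKM in the control, 186 ± 10.1 with siRNA1 and 173 ± 1.77 with siRNA2, the highest fitted change of the ring (log2 fold change 0.24, limma adjusted p = 0.393). PSMA2 had the lowest, at 126 ± 6.80, 119 ± 1.2 and 92.6 ± 1.2 FPKM (log2 fold change -0.26, limma adjusted p = 0.503), with siRNA2 well below the other samples. PSMA7 read 187 ± 7.98 FPKM in the control, 148 ± 1.2 with siRNA1 and 191 ± 2.63 with siRNA2, so that siRNA1 alone was low. PSMA1 read 110.0 FPKM against 106 and 101, PSMA3 161 FPKM against 158 and 145 and PSMA5 29.3 FPKM against 30.6 and 33.6. With PSMA6 these had fitted log2 fold changes between -0.09 and 0.13, and only the columns of PSMA5 did not overlap between control and siRNA samples. In the beta ring, PSMB1 read 181 ± 7.98, 225 ± 7.12 and 209 ± 3.27 FPKM, with both siRNA samples above the control (log2 fold change 0.26, limma adjusted p = 0.352). PSMB2 read 48.6 ± 1.5, 42.2 ± 2.06 and 32.5 ± 0.0495 FPKM and was 1.5-fold lower with siRNA2 (log2 fold change -0.38, limma adjusted p = 0.353). PSMB3 read 179 FPKM in the control and was 1.12-fold higher with each siRNA, and PSMB4 read 170.0 FPKM against 196 and 185.

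Assembly factors spread around their control level. PSMG4, a chaperone of the alpha ring, read 14.5 ± 1.03 FPKM in the control, 16.9 ± 2.53 with siRNA1 and 19.1 ± 1.36 with siRNA2, with overlapping columns (log2 fold change 0.29, limma adjusted p = 0.417). PSMD10, the ATPase chaperone gankyrin, read 37.4 ± 1.65, 45.1 ± 0.905 and 46.4 ± 0.177 FPKM, with both siRNA samples above the control (limma adjusted p = 0.356). PSMG3 was lowest by fitted change, at 69.1 FPKM against 65.8 and 66.4 (log2 fold change -0.06, limma adjusted p = 0.851). PSMG1 and PSMG2, which pair as a chaperone of the alpha ring, read 42.4 FPKM against 43.9 and 46.8 and 55.5 FPKM against 58.2 and 55.4. PSMD5 and PSMD9, chaperones of the ATPase ring, read 27 FPKM against 26.4 and 28.3 and 23.8 FPKM against 22.5 and 23.7. Columns of these 4 genes overlapped between control and siRNA samples, with fitted log2 fold changes between -0.04 and 0.09.

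The siRNA samples were also set against each other. PSMA7 was 1.29-fold higher with siRNA2 than with siRNA1, and PSMB2, PSMB5 and PSMA2 were 1.30-fold, 1.29-fold and 1.28-fold higher with siRNA1. On the log2(FPKM + 1) scale siRNA2 minus siRNA1 ranged from -0.37 to 0.36 over the core and from -0.24 to 0.16 over the regulatory particle. PSMC3 differed by 1.02-fold between them. At a q-value under 0.05 in the authors' deposited table, 10 of 45 members were higher and 22 lower with siRNA2 than with siRNA1, where 28.5% and 33.8% of all genes were. The authors' deposited table also called 28 members higher and 8 lower with siRNA1 against the control (background 41.0% and 35.6%), and 26 higher and 9 lower with siRNA2 (background 37.1% and 33.8%). No sample replicates stand behind the difference between the siRNAs, and it was not tested here.

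Genes around the proteasome were read from lists of its other subunits, its regulators, ubiquitin shuttles, ubiquitin genes and antigen processing. Of 11 proteasome genes without a PSM symbol none passed the test. SEM1, the smallest lid subunit, read 270.0 FPKM against 319 and 285, ADRM1, the ubiquitin receptor RPN13, 121 FPKM against 139 and 145, and the core chaperone POMP 79.3 FPKM against 85.7 and 85.1. UBLCP1, a phosphatase of the proteasome, read 13.9 FPKM against 21.9 and 15.3 (limma adjusted p = 0.453). USP14, a deubiquitinase bound to the regulatory particle, read 47.9 ± 0.940 FPKM in the control, 17.3 ± 1.03 with siRNA1 and 34.3 ± 1.37 with siRNA2. It was 2.77-fold and 1.40-fold lower, with no overlap of columns, and did not pass (limma adjusted p = 0.229).

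Among 8 regulators of proteasome genes, NFE2L1 rose. It read 40.5 ± 0.382 FPKM in the control, 81.0 ± 1.46 with siRNA1 and 85.9 ± 1.73 with siRNA2, or 2.0-fold and 2.12-fold higher (log2 fold change 1.02 ± 0.14 SE, limma adjusted p = 0.0267). Like PSMC3, it no longer passed with genes of low FPKM kept in (adjusted p = 0.320) or with quantile-normalized values (adjusted p = 0.0591), and the adjusted p ran from 6.19e-09 to 0.320 over the alternatives with a test, which were added for this gene after seeing the data. Its relative NFE2L2, which encodes NRF2, missed the threshold at 54.0 FPKM against 42.1 and 32.0 (limma adjusted p = 0.208). NGLY1 and DDI2, the enzymes that process NRF1, read 15.9 FPKM against 15.1 and 18.8 and 5.92 FPKM against 3.17 and 8.11. Of the genes of ubiquitin shuttles and the unfoldase that carry substrates to the regulatory particle, the unfoldase VCP read 169 FPKM against 177 and 188. UBQLN2, a shuttle, read 8.51 FPKM against 4.2 and 6.92 (limma adjusted p = 0.329), and the VCP cofactor UFD1L 58.5 FPKM against 75.3 and 69.9 (limma adjusted p = 0.316). None of 6 ubiquitin and activation genes passed, with fitted log2 fold changes from -0.18 to 0.11.

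**Figure D5:**
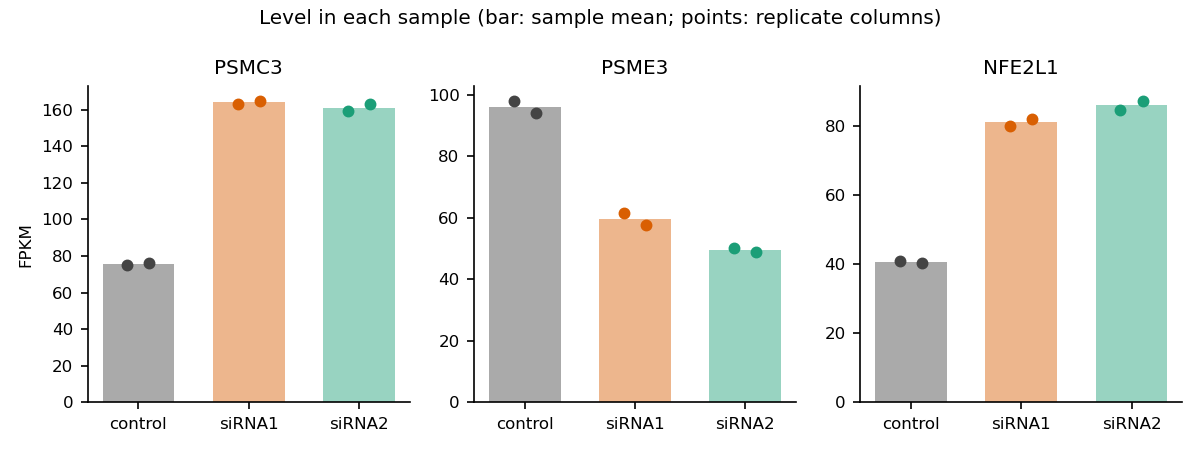
FPKM of PSMC3, PSME3 and NFE2L1 in the control, siRNA1 and siRNA2 samples; bars are sample means and points the 2 replicate columns. For each gene the siRNA bars are close to each other (PSME3 least so) and apart from the control, above it except for PSME3.

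None of 12 genes of antigen processing passed the test, and their median log2 fold change was -0.18. TAP1 and TAP2, the peptide transporter genes that lie beside PSMB8 and PSMB9, read 22.8 FPKM against 26.6 and 24.7 and 28.0 FPKM against 20.8 and 29.1. The interferon regulators IRF1 and NLRC5, which act on immunoproteasome and class I genes, read 8.14 FPKM against 4.24 and 3.90 (limma adjusted p = 0.0642) and 2.10 FPKM against 1.05 and 1.03 (limma adjusted p = 0.123). TAPBP, which loads peptides onto class I molecules, read 34.7 FPKM against 29.1 and 27.6 (limma adjusted p = 0.378).

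Promoters were searched because NRF1 acts through the antioxidant response element. Of the 48 members 42 had an entry in the RefSeq promoter table (GRCh38.p14, 250 bases before to 50 after a start site), with 51 promoters. The core of the element, TGACNNNGC on either strand, occurred in 15 of 51, or 29.4%, beside 13.3% of all promoters and 14.4% of those of genes tested. By class it occurred in 5 of 18 promoters of the regulatory particle (27.8%) and 2 of 14 of the constitutive core (14.3%). These promoters cover 16 of the 17 regulatory particle genes and 10 of the 14 core genes. The other matches were in promoters of activators, of assembly factors and of PSMB9. Neither PSMC3 nor PSME3 held TGACNNNGC in this window. The matches of PSMA4 and PSMB3, the only 2 of the constitutive core, and of PSMD12, of the lid, are shown with the matching letters in capitals.
PSMA4, chr15:78540640-78540689, plus strand: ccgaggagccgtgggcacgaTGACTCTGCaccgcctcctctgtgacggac
PSMB3, chr17:38752617-38752666, plus strand: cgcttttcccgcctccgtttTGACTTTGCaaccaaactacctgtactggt
PSMD12, chr17:67366713-67366762, minus strand: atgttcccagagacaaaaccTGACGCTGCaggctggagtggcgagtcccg
Of these genes PSMA4 and PSMB3 read higher with both siRNAs than in the control and PSMD12 was above the control with siRNA1 and below it with siRNA2. None of the 3 passed the test.

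A further word, searched with earlier results known, was counted by class. CCGGAAG, the core of sites for ETS factors, on either strand occurred in 9 of 18 promoters of the regulatory particle (50%) and in 1 of 14 of the constitutive core (7.14%), beside 17.1% of promoters of genes tested; the difference between the classes was not tested. CCAAT on either strand occurred in 44.4% and 50% of them, beside 35%. Promoters of the regulatory particle genes PSMD6, PSMD8 and PSMD13 are shown in part, upstream of the start site, with the word in capitals (its reverse complement in PSMD8).
PSMD6, chr3:64023502-64023551, minus strand: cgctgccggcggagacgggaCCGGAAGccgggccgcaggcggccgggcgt
PSMD8, chr19:38374521-38374570, plus strand: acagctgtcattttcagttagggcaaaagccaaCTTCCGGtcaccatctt
PSMD13, chr11:236926-236975, plus strand: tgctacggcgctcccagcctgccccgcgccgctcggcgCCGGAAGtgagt
A match describes these letters only. The promoter of PSMC3 held CCAAT and no CCGGAAG, so the member with the largest rise was not among those with the ETS word.

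Transcripts were searched for 2 words of 7 letters that earlier work on these data had found among the genes that rose (TCGGAGA) and fell (ACTCAGT). A link of these words to direction, in all genes or in the members, is therefore no independent support. All 45 members tested had GENCODE v29 transcripts paired with those of the table. TCGGAGA occurred in 6 of 45 (13.3%, against 11.7% of genes tested), and PSMC3 was the one with a large change: its fitted log2 fold change was 1.10 and the others lay between -0.04 and 0.18. ACTCAGT occurred in 8 of 45 (17.8%, against 21.5%), among them PSME3, PSMB2 and PSMA2, which had the lowest fitted change of their classes (-0.81, -0.38 and -0.26). The other 5, PSMB6, PSMC1, PSMD11, PSMF1 and PSMG4, lay between 0.05 and 0.29. Over the members the median fitted log2 fold change was 0.14 with TCGGAGA and 0.11 without. For ACTCAGT it was 0.08 with the word and 0.11 without. Sites of PSMC3, PSME3, PSMB2 and PSMA2 are shown with the word in capitals, in the transcript and at the positions named. Those of the other members with a word are not shown.
PSMC3-213, 5′ UTR, 14 to 42: ggtctttggaaTCGGAGAggcagattcgc
PSME3-201, 3′ UTR, 2384 to 2412: ccacgaatagtACTCAGTaacaaaccaat
PSMB2-202, 3′ UTR, 3103 to 3131: agggacatcgaACTCAGTatgtctaaagc
PSMA2-201, coding, 418 to 446: tgcaagaatatACTCAGTcaggtggtgtt
NFE2L1 held neither word. Genes with a word have longer transcripts, with medians over genes tested of 4050 bases with TCGGAGA against 3106 without, and 4872 with ACTCAGT against 2887. The part of these words in the differences was not tested.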

How the data were processed

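Per the file headers, the authors deposited FPKM values per gene in 2 replicate columns per sample and as sample means, with log2 fold changes, p-values and DEGseq q-values of their own comparisons. Tools listed in the submitters' processing notes, with no role or order, are RSEM 1.2.12, DESeq 3.4, HISAT2 2.0.4 and Bowtie2 2.2.5, and the build is hg19. Coordinates of genes are those of the table (hg19). No source used here gives the strand setting. A heading shared by 2 columns kept both from use; for each siRNA sample the first replicate value was computed from the deposited mean and the other replicate.

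Of 19280 rows, 14 without a gene ID and 2047 without values were left out, and 17219 genes remained. The trended fit of limma 3.58.1 (R 4.3.3) on log2(FPKM + 1) took the 12078 genes that reached 1 FPKM in any sample, 1 control against 2 DLX5 siRNA samples, with Benjamini-Hochberg adjustment over all of them (5.16 prior and 1 residual degrees of freedom), and was tested on simulated data. The pseudocount understates the change of low genes. Differences of 25% up or 20% down were counted for each siRNA and not jointly, because both share the control. Reads were estimated from single-transcript genes of 500 to 1300 bases, taking the whole length as effective.

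Members and lists were chosen with earlier results of these data known. Named with full values were members past the test, the catalytic subunits and their counterparts, the extremes of each class and members under 1 FPKM; of other lists, called genes and up to 4 with large changes, plus some named after their values were seen (SEM1, ADRM1, POMP, NGLY1, DDI2, VCP, TAP1, TAP2). Some genes of these lists are not reported here. Other members named individually were also chosen after their values were seen. Alternatives were a pseudocount of 0.1, no filter, quantile normalization, replicate columns as separate values, an adjusted p under 0.10 and each siRNA sample left out.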

Additional observations from a re-analysis of the deposited data

How the results depend on the processing

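The count of proteasome genes that rose, 1, was 0 without the filter on low FPKM and 0 after quantile normalization, when 0 and 12 genes of the whole table rose. With the replicate columns as separate values, whose spread is within samples, 24 rose and 6 fell, and of all genes 3932 rose and 3592 fell; this setting made 11 of the members named by rule pass that did not before. At an adjusted p under 0.10, 1 member fell (PSME3). The median log2 fold change of the members, 0.11, was 0.06 after quantile normalization and 0.08 to 0.10 when a siRNA sample was left out, which leaves no residual degrees of freedom and so a value with no test and no count. The DLX5 call was lost without the filter (log2 fold change -1.66, adjusted p = 0.320) and after quantile normalization (-1.63, adjusted p = 0.0531), with adjusted p from 6.16e-09 to 0.320 over the alternatives, which were added for this gene after seeing the data. Of the members named by rule, PSMD12 alone changed sign, from 0.01 to -0.04 after quantile normalization and from -0.03 without the siRNA1 sample to 0.04 without the siRNA2 sample. PSMC3 and NFE2L1 lost their calls in the settings where DLX5 did. The cause was not tested. No paired analysis was possible because the control is a single sample that shares no replicate number with both siRNA samples.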
